A study of Mus musculus with 10 samples.

Results

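The interleukin 6 family of cytokines and receptors was examined in mouse colon through 10 genes. These were the ligand genes *Il6*, *Il11*, *Lif* and *Osm*, the receptor genes *Il6ra*, *Il11ra1* and *Osmr*, the gene of the shared receptor chain *Il6st*, the transcription factor gene *Stat3* and the feedback inhibitor gene *Socs3*. They were taken by gene symbol, and all 10 symbols were found among the 56691 genes of the deposited table. RNA sequencing had been performed on colon tissue of 10 male C57BL/6 mice, 8 weeks old at purchase, 5 of which formed the DSS group and 5 the ceAF group. Mice of both groups drank 3% dextran sulfate sodium (DSS), which injures the colon epithelium and causes colitis, for 7 days. The ceAF group then received chick early amniotic fluid (ceAF) by gavage at 15 mL/kg for 10 days. Untreated mice and mice given mesalazine were not analysed here, and each value compares ceAF after DSS with DSS alone. The labels and the text of the study do not say whether the DSS group received a gavage without ceAF or on which day the colon of each group was taken, although the text scores DSS mice during the gavage period too, and its design figure was not available here. Whether gavage or the time since DSS also differed between the groups is therefore not known from these sources. Each mouse carries its group and its number, as in DSS-1 or ceAF-1, and values per mouse are listed from number 1 to number 5.

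The cytokines of these ligand genes all signal through gp130, the protein encoded by *Il6st*, paired with a receptor chain that is specific to one or a few ligands. Receptor-bound JAK kinases activate STAT3, which enters the nucleus and induces, among other genes, *Socs3*, whose protein binds gp130 and shuts the signal down. In inflamed colon, interleukin 6 and oncostatin M come largely from myeloid cells, interleukin 11 comes largely from stromal cells, and STAT3 activity in the epithelium is known for its part in repair.

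The libraries held 14676471 to 19901549 counted reads. No library was a copy of another of its group, as chi-square per gene was 13.2 to 133 over the 20 within-group pairs, above counting noise. Levels per mouse are given as CPM, the count scaled to a common library size with TMM normalization (trimmed mean of M-values), which does not take gene length into account. ceAF-1 stood apart from the other mice on the first principal component of log2 CPM, at 93.6 against −45.5 to 16.0. DSS-1 was highest on the second component at 60.3, and DSS-5 was lowest at −45.8. The epithelial marker list marked the tissue as intestinal, since all 13 of its genes were tested and their summed level was between 16820 and 30360 CPM in every mouse.

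Of these genes, the feedback inhibitor *Socs3* and the shared chain *Il6st* had lower means in the ceAF group. Their differences exceeded their fitted error but did not pass adjustment. The ligand *Osm* was low in every ceAF mouse, but it was also low in DSS-2, DSS-4 and DSS-5. *Lif* and *Osmr* differed by less than the spread between mice. Of the 10 genes, 8 had enough counts to be tested and *Il6* and *Osm* did not. Of the 8, 6 were lower with ceAF and 2, *Lif* and *Osmr*, were higher. Their median log2 fold change, ceAF relative to DSS, was −0.40 against 0.0076 over all 16545 genes tested. This median of the family was −0.24 without DSS-1, −0.25 with the replicate number as a block and −0.23 with limma-trend on FPKM with a pseudocount of 1. With p under 0.05 before adjustment, 2 were lower, *Socs3* and *Il6st*, and 0 were higher, where 3.67% of all genes tested were lower and 3.26% higher by the same rule. After Benjamini-Hochberg adjustment in edgeR, 0 of the 8 were differentially expressed genes (DEGs), which required p under 0.05 once adjusted and a log2 fold change of 1 or more in size. DESeq2 and limma-voom also called 0 of them. Over all genes the share of DEGs was 0% with edgeR, where the lowest Benjamini-Hochberg adjusted p was 0.656, while 607 genes were lower and 539 higher before adjustment. DESeq2 gave 26 DEGs, 25 of them lower. The 2 groups did not overlap in 0 of the 8 tested genes, against 0.465% of genes tested with every ceAF mouse below every DSS mouse, and in 1 of all 10, *Osm*, against 0.348% of the 32504 genes with any count. In bulk tissue, fewer cells of a type and less RNA per cell cannot be told apart, which holds for every level given here.

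**Figure D1:**
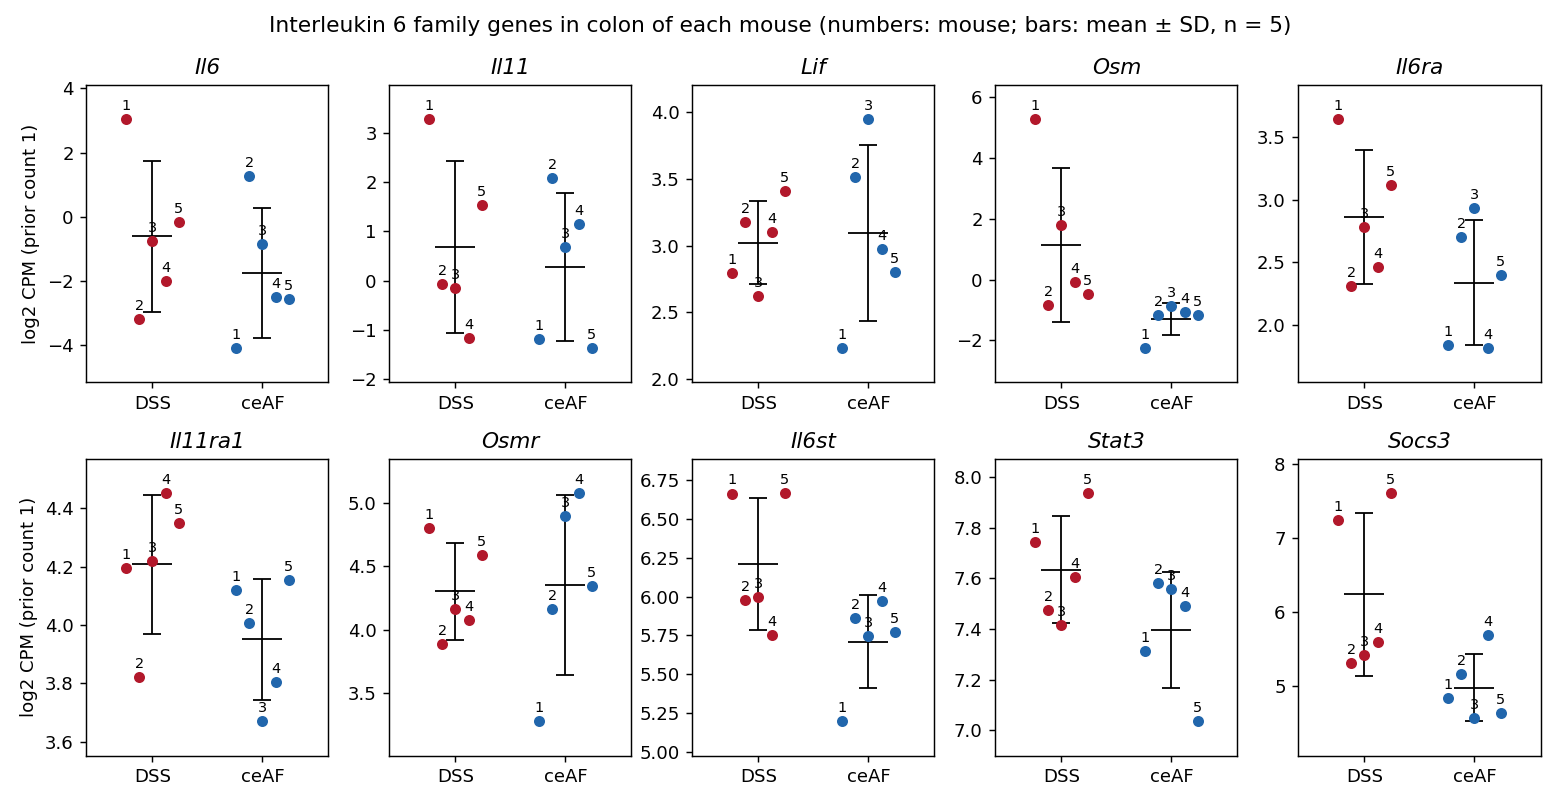
Level of each of the 10 genes in colon of each mouse as log2 CPM with a prior count of 1, with the DSS group in red and the ceAF group in blue, the mouse number above each point, and bars for the mean ± SD (n = 5). DSS-1 is the highest mouse for *Il6*, *Il11*, *Osm* and *Il6ra*, DSS-1 and DSS-5 lie above all other mice for *Il6st*, *Stat3* and *Socs3*, and ceAF-1 is the lowest mouse for 5 of the 10 genes.

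Among the ligands, *Osm* was the only one whose groups did not overlap. *Osm* encodes oncostatin M, a cytokine of neutrophils, monocytes and T cells that acts on stromal and epithelial cells, and the deposited table places the gene at chr11:4186420-4191026 on the plus strand, without naming its build (ENSMUSG00000058755). Its level was 38.8, 0.500, 3.41, 0.897 and 0.660 CPM in the 5 DSS mice and 0.153, 0.391, 0.494, 0.418 and 0.385 CPM in the 5 ceAF mice. Every ceAF mouse was below every DSS mouse, but the gap between the groups was narrow, between DSS-2 with 10 counts and ceAF-3 with 9 counts. The exact two-sided permutation test over all 252 assignments of the mice gave p = 0.00794, which is the smallest p-value it can give with 5 mice per group. The mean was 8.86 ± 16.8 CPM with DSS alone and 0.368 ± 0.128 CPM with ceAF (SD, n = 5 each), a ratio of 24.1 that was set by DSS-1, which held 87.9% of the 762 *Osm* counts of the DSS group. Since most mice had too few counts, *Osm* was fitted in all 10 mice only when the filter on low counts was dropped, with a log2 fold change of −4.50 (standard error, SE, 1.14). In that edgeR fit p was 0.00145 before and 0.690 after Benjamini-Hochberg adjustment. The unadjusted p was 0.0747 with limma-voom, and 0.125 and 0.0514 with limma-trend on FPKM with pseudocounts of 1 and 0.1, while DESeq2 gave no p-value. With the replicate number as a block the log2 fold change was −2.42 and p was 0.0150. Without DSS-1 the log2 fold change was −1.85 (SE 0.578), and ceAF mice remained lower.

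*Il6* encodes interleukin 6, the cytokine that gave the family its name, and lies at chr5:30218112-30224979 on the plus strand in the deposited table (ENSMUSG00000025746). Its counts were 141, 1, 9, 3 and 14 in the 5 DSS mice and 0, 36, 9, 2 and 2 in the 5 ceAF mice. Apart from DSS-1 and ceAF-2 the gene was close to the limit of detection in these libraries, and the groups overlapped. The count of 0 in ceAF-1 allows a level of up to 0.204 CPM from counting error alone, taking 3 counts as the upper limit. This limit was scaled to the total count without TMM, unlike the other CPM values. The mean was 1.96 ± 3.49 CPM with DSS alone and 0.613 ± 0.985 CPM with ceAF (SD, n = 5 each), with p = 0.444 in the exact two-sided permutation test. DSS-1 alone held 83.9% of the *Il6* counts of the DSS group. When *Il6* was fitted without a filter its log2 fold change was −1.64 (SE 1.14), and without DSS-1 it turned to 0.59. Without ceAF-2 it was −3.28, with a quasi-likelihood p-value of 0.0205 before and 0.734 after Benjamini-Hochberg adjustment.

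*Il11* encodes interleukin 11, a stromal cytokine that uses gp130 with its own alpha receptor. Its level was 9.62, 0.899, 0.838, 0.384 and 2.82 CPM in the 5 DSS mice and 0.382, 4.17, 1.54, 2.15 and 0.330 CPM in the 5 ceAF mice. DSS-1 was the highest mouse and ceAF-2 the next, whereas DSS-4, ceAF-1 and ceAF-5 were all low, so that high and low mice were found in both groups. Between the groups *Il11* had a log2 fold change of −0.76 (SE 0.893, 95% interval −2.73 to 1.20), and it was 0.46 without DSS-1. The exact permutation p-value was 0.698.

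*Lif* encodes leukemia inhibitory factor, a ligand that signals through gp130 and the LIF receptor, and is the neighbour of *Osm* on chromosome 11, at chr11:4207557-4222514 on the plus strand in the deposited table. Its level was 6.90, 8.99, 6.11, 8.52 and 10.6 CPM in the 5 DSS mice and 4.65, 11.4, 15.4, 7.82 and 6.93 CPM in the 5 ceAF mice. The ceAF mice spanned a wider range that held all DSS mice, and DSS-1, where *Osm* was far above all other mice, was not high for *Lif*. For *Lif* the log2 fold change was 0.17 (SE 0.297), less than the spread between mice, and its sign turned when ceAF-3 was left out, to −0.09.

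Among the receptor genes of the family, the shared chain had a lower mean in the ceAF group with p under 0.05 before adjustment, and no ligand-specific chain had p under 0.05. *Il6st* encodes gp130 and lies at chr13:112600604-112646620 on the plus strand in the deposited table (ENSMUSG00000021756). Its level was 101.2, 62.9, 63.7, 53.9 and 101.5 CPM in the 5 DSS mice and 36.6, 58.2, 53.6, 62.7 and 54.5 CPM in the 5 ceAF mice. DSS-1 and DSS-5 were above all other mice and ceAF-1 was below them, while the remaining 3 DSS mice overlapped with the remaining 4 ceAF mice. The mean was 76.6 ± 22.9 CPM with DSS alone and 53.1 ± 9.90 CPM with ceAF (SD, n = 5 each), with p = 0.0556 in the exact two-sided permutation test. On the log2 scale the change of *Il6st* was −0.53 (SE 0.208, 95% interval −0.99 to −0.07). The quasi-likelihood p-value was 0.0276 unadjusted, and the adjusted p-value from edgeR with Benjamini-Hochberg adjustment was 0.690. When DSS-1, DSS-5 or ceAF-1 was left out, p before adjustment was 0.0794, 0.0821 or 0.0592, with log2 fold changes of −0.41, −0.39 and −0.42. It was 0.0844 with the replicate number as a block, and 0.0558 and 0.0556 with limma-trend on FPKM with pseudocounts of 1 and 0.1.

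*Il6ra* encodes the interleukin 6 receptor, which binds the cytokine before gp130 is recruited. It ranged from 4.90 to 12.5 CPM in the DSS group, with DSS-1 highest, and from 3.46 to 7.57 CPM in the ceAF group. The groups overlapped, and the log2 fold change was −0.54 (SE 0.310, 95% interval −1.23 to 0.14), or −0.29 without DSS-1. *Il11ra1* encodes the interleukin 11 receptor and ranged from 14.1 to 21.8 CPM in DSS mice and from 12.7 to 17.8 CPM in the ceAF group, and its log2 fold change was −0.26 (SE 0.147). In the deposited table the span of *Il11ra1* overlaps 6 other genes, among them *Galt* on the same strand, and its near-identical copy *Il11ra2* had a level of 0.064 CPM in DSS-4 and 0 in the other mice. How the authors' counting divided reads among such genes is not given in the sources used here, so the level of *Il11ra1* is uncertain.

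*Osmr* encodes the oncostatin M receptor, which pairs with gp130 and is carried by fibroblasts and epithelial cells. It was measured at 27.9, 14.7, 17.8, 16.8 and 24.1 CPM in the 5 DSS mice and at 9.61, 17.8, 29.8, 33.8 and 20.2 CPM in the 5 ceAF mice. The lowest and the highest mouse were both in the ceAF group. The ligand gene *Osm* was low in all 5 ceAF mice, and also in DSS-2, DSS-4 and DSS-5. ceAF-1 was the lowest mouse for both genes, and in the DSS group DSS-1 was the highest and DSS-2 the lowest for both. A relation of *Osmr* to *Osm* was not tested. The log2 fold change was 0.14 (SE 0.307, 95% interval −0.54 to 0.81), and it was −0.05 without ceAF-4.

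Downstream of the receptors, *Socs3* showed the largest fitted change of the 8 tested genes. Its protein, suppressor of cytokine signaling 3, is induced by STAT3 and inhibits signaling at gp130, and the gene lies at chr11:117856905-117860873 on the minus strand in the deposited table (ENSMUSG00000053113). *Socs3* was measured at 151, 39.6, 42.7, 48.1 and 194 CPM in the 5 DSS mice and at 28.5, 35.6, 23.6, 51.2 and 24.8 CPM in the 5 ceAF mice. DSS-1 and DSS-5 were far above every other mouse, whereas DSS-2, DSS-3 and DSS-4 were below ceAF-4 and above the other ceAF mice. The mean was 95.1 ± 72.4 CPM with DSS alone and 32.7 ± 11.3 CPM with ceAF (SD, n = 5 each), a ratio of 2.91, with p = 0.0397 in the exact two-sided permutation test. On the log2 scale the change of *Socs3* was −1.54 (SE 0.475, 95% interval −2.58 to −0.49). The quasi-likelihood p-value was 0.00789 unadjusted, and the adjusted p-value from edgeR with Benjamini-Hochberg adjustment was 0.656. DSS-1 and DSS-5 together held 72.1% of the *Socs3* counts of the DSS group. Without DSS-1 the log2 fold change was −1.31 and without DSS-5 it was −1.08. The p before adjustment was under 0.05 in each of the 10 fits that left out 1 mouse. Each of these fits kept DSS-1 or DSS-5, so they do not show the difference without both of these mice.

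*Stat3* encodes the transcription factor that carries the signal of all these receptors. Its level was 214, 178, 171, 195 and 245 CPM in the 5 DSS mice and 159, 192, 189, 179.6 and 131 CPM in the 5 ceAF mice. The groups overlapped over most of their range, although the 2 highest mice were again DSS-5 and DSS-1. For *Stat3* the log2 fold change was −0.24 (SE 0.137, 95% interval −0.54 to 0.06), and it was −0.14 without DSS-5. RNA levels do not show whether the STAT3 protein was phosphorylated. The span of *Stat3* overlaps *Stat5a* on the opposite strand, and without a stated use of strand their reads cannot be told apart where they overlap.

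Levels of different genes were compared per gene length, as FPKM, the deposited measure that divides counts by gene length and library total. In the DSS group *Socs3* had the highest mean level, 33.4 ± 25.8 FPKM, followed by *Stat3* at 21.2 ± 3.39 FPKM (SD, n = 5 each). These neighbours did not differ beyond their spread, and neither overlapped in FPKM with *Il6st* across the mice. *Il6st* followed at 6.99 ± 2.23 FPKM, *Il11ra1* at 4.19 ± 0.601 FPKM and *Osm* at 4.04 ± 7.69 FPKM, the last through DSS-1 alone, where it reached 17.8 FPKM against at most 1.54 FPKM in the other DSS mice. *Lif*, *Osmr*, *Il11*, *Il6ra* and *Il6* had means of 0.836 FPKM or more, up to 1.898 FPKM for *Lif*, and from *Il6st* down each neighbouring pair overlapped over the mice. In the ceAF group *Stat3* was first at 17.7 ± 2.65 FPKM and *Socs3* second at 11.3 ± 4.33 FPKM, and *Il6st*, *Il11ra1*, *Lif*, *Osmr*, *Il11* and *Il6ra* followed in that order. *Stat3* and *Socs3* overlapped there, *Socs3* and *Il6st* did not, and the pairs after them did. *Il6* at 0.250 ± 0.398 FPKM and *Osm* at 0.162 ± 0.0589 FPKM were the lowest. The receptor and signaling genes were thus detected in every mouse, and the ligand genes *Il6*, *Il11* and *Osm* were the ones whose FPKM level varied most from mouse to mouse relative to its mean in the DSS group.

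The relation of the ligands to *Socs3* across the 10 mice was computed for the tested ligands, *Il11* and *Lif*, which makes 2 relations. *Il11* and *Socs3* had a Pearson r of 0.636 with a permutation p-value of 0.0482, or 0.0964 with Benjamini-Hochberg adjustment, and a Spearman rho of 0.527 with a permutation p-value of 0.123, or 0.246 adjusted. Without DSS-1 and ceAF-2, the mice farthest from the median of *Il11*, r was 0.614, and with values centred on each group's mean it was 0.720. *Lif* and *Socs3* had an r of 0.0141 with a permutation p-value of 0.968, also 0.968 with Benjamini-Hochberg adjustment, and a rho of −0.115 with a permutation p-value of 0.759. Without ceAF-3 and ceAF-1 that r was 0.163.

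Genes outside the family with the most similar pattern were ranked by Pearson r of log2 CPM over the 10 mice among 15223 genes, as a description. For *Socs3* they were *Thbs1* (r = 0.935), *Klhl2* (0.933), *Csgalnact2* (0.922), *Tnc* (0.921) and *Rgs4* (0.912). *Thbs1*, which encodes thrombospondin 1, an extracellular matrix protein, was measured at 336, 41.2, 52.7, 53.1 and 206 CPM in the 5 DSS mice and at 31.8, 48.9, 47.5, 56.8 and 21.1 CPM in the 5 ceAF mice. As with *Socs3*, DSS-1 and DSS-5 were far above the other 8 mice. For *Il11* the most similar genes included *Dio2* (r = 0.981), *Pi15* (0.909), *Cemip* (0.907) and *Arhgef7* (0.896). *Dio2*, which encodes a deiodinase that activates thyroid hormone, was highest in DSS-1 at 30.4 CPM and next in ceAF-2 at 8.46 CPM, the same mice as for *Il11*. For *Lif* they were *Rnd3* (r = 0.977), *Net1* (0.967), *Zfp710* (0.962), *Lnx2* (0.958) and *Rnpep* (0.942), whose highest mouse was ceAF-3 and whose log2 fold changes were between 0.02 and 0.11.

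Of the other genes of the pathway, 61 on 5 lists, 55 were tested, with 39 lower and 16 higher after ceAF and a median log2 fold change of −0.15, beside 0.0076 over all genes tested. With p under 0.05 before adjustment, 7 of the 55 were lower and 0 were higher, beside 3.67% and 3.26% of all genes tested, and edgeR with Benjamini-Hochberg adjustment gave 0 DEGs. Among 7 other ligand genes, 3 were tested, and their log2 fold changes ran from −0.93 for *Ebi3*, a subunit of interleukin 27 (SE 0.567), to 0.0044 for *Ctf1*, cardiotrophin 1 (SE 0.367). The value of *Ebi3* was set by DSS-1, with 48 counts against at most 17 in any other mouse, and was −0.17 without it. The other 4, among them *Cntf*, *Il27* and *Il31*, were too low to be tested. *Il31* had no count in any mouse, which allows 0.151 to 0.204 CPM at 3 counts, scaled to the total count without TMM. Among 5 other receptor genes, *Il31ra* and *Il11ra2* were too low to be tested, and all 3 tested were lower, from *Cntfr* at −0.14 (SE 0.501) to *Il27ra*. The sign of *Cntfr* turned with limma-voom, with the replicate number as a block, without DSS-1 and without ceAF-4.

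*Il27ra* encodes the receptor chain that joins gp130 to form the interleukin 27 receptor, found mainly on lymphocytes, and lies at chr8:84756923-84769218 on the minus strand in the deposited table. It was measured at 7.07, 5.15, 5.15, 4.61 and 3.60 CPM in the 5 DSS mice and at 1.83, 2.21, 2.69, 1.67 and 2.36 CPM in the 5 ceAF mice. The groups did not overlap, which held for this 1 gene of the 55, beside 0.465% of all genes tested, and leaving out any 1 mouse moved the difference little. The log2 fold change was −1.24 (SE 0.226, 95% interval −1.74 to −0.75), and it ran from −1.33 to −1.09 when each mouse was left out in turn. With limma-trend on FPKM with a pseudocount of 1 it was −0.61. The exact permutation p-value was 0.00794. After Benjamini-Hochberg adjustment p was 0.656 with edgeR's quasi-likelihood test and 0.00183 with DESeq2's Wald test, so that the call depended on the count model. The other scalings, filters and models, the block of replicate numbers included, gave *Il27ra* adjusted p-values from 0.656 to 0.972, and the fits without 1 mouse gave 0.141 to 1.00.

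T cell markers moved with *Il27ra*. Each of the 9 T cell markers was lower after ceAF with p under 0.05 before adjustment, beside 3.67% of all genes tested. Their median log2 fold change was −1.23. Their summed level was 128, 143, 137, 149.8 and 53.7 CPM in the 5 DSS mice and 52.7, 67.9, 57.1, 30.9 and 39.3 CPM in the 5 ceAF mice. DSS-5, the lowest DSS mouse for *Il27ra*, was also the lowest DSS mouse for these markers and lay within the range of the ceAF group, whereas DSS-1, the highest for *Il27ra*, was not the highest for them. Of the 9, *Cd3d*, *Cd3e*, *Cd3g* and *Cd8a* were picked by the study from these libraries. The others were measured in the same libraries, and the list was chosen with earlier results of these data known. None of the 9 is therefore independent evidence of a difference. The most abundant of them by FPKM was *Trbc2*, a constant segment of the T cell receptor beta chain, with a log2 fold change of −1.25 (SE 0.358). The part of T cell number in the level of *Il27ra* was not tested.

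**Figure D2:**
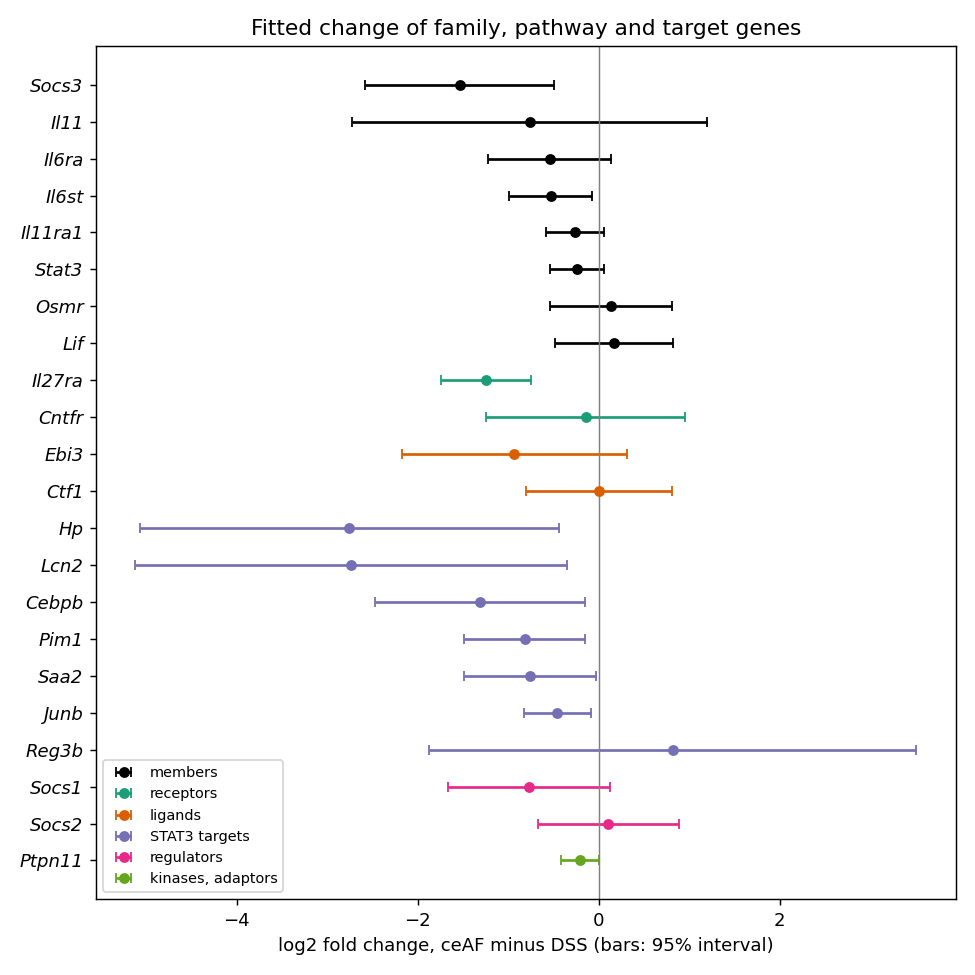
Log2 fold change (ceAF minus DSS) of the 8 tested family genes and of named genes of the 5 related lists, with bars for the 95% interval of the quasi-likelihood fit and colours for the lists. The intervals of *Socs3*, *Il6st*, *Il27ra*, *Hp*, *Lcn2*, *Cebpb*, *Pim1*, *Saa2* and *Junb* lie below 0, and those of *Lif*, *Osmr*, *Reg3b* and *Socs2* include 0.

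Of 28 STAT3 target genes, all tested, 20 were lower and 8 higher after ceAF, and the median log2 fold change was −0.26. Over all genes tested, 8034 were lower and 8511 higher. With p under 0.05 before adjustment in edgeR, 3.67% of all genes tested were lower and 3.26% higher. Of the STAT3 targets, 6 were lower and 0 higher by that rule. These were *Hp*, which encodes the hemoglobin-binding protein haptoglobin, *Lcn2*, which encodes lipocalin 2, a siderophore-binding protein of neutrophils and epithelium, the transcription factor genes *Cebpb* and *Junb*, the kinase gene *Pim1* and the acute phase gene *Saa2*. *Hp* was measured at 164, 3.90, 18.9, 4.36 and 10.3 CPM in the 5 DSS mice and at 1.76, 9.83, 4.06, 11.04 and 3.08 CPM in the 5 ceAF mice. DSS-1 was far above all other mice, and the other 4 DSS mice overlapped with the ceAF group. Its log2 fold change of −2.76 (SE 1.05) was −0.65 without DSS-1. *Lcn2* had the same profile, with 137 CPM in DSS-1, at most 14.4 CPM in any other mouse, and a log2 fold change of −2.73 (SE 1.09) that was −0.56 without DSS-1. *Cebpb* was at 62.9 CPM in DSS-1 and between 7.15 and 12.6 CPM in the other 9 mice, with a log2 fold change of −1.31 (SE 0.529) that was −0.34 without DSS-1.

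For these 6 targets the unadjusted p depended on the model and on single mice. With limma-voom it was under 0.05 for *Pim1* and *Junb*, but 0.195 for *Hp*, 0.288 for *Lcn2*, 0.152 for *Cebpb* and 0.0672 for *Saa2*. With the replicate number as a block, *Hp*, *Lcn2* and *Cebpb* had p of 0.327, 0.505 and 0.120, and *Saa2* had p of 0.0571 with DESeq2. When each mouse was left out, *Hp* and *Lcn2* had p under 0.05 in 7 of 10 fits, *Cebpb* in 6 and *Saa2* in 3, with the largest p without DSS-1 for *Hp*, *Lcn2* and *Cebpb* and without DSS-5 for *Saa2*. *Pim1* and *Junb* had p under 0.05 in 9 of 10 fits each, with 0.0512 for *Pim1* without ceAF-5 and 0.0515 for *Junb* without DSS-1.

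The fold changes of *Pim1*, *Junb* and *Saa2* depended less on DSS-1 than those of *Hp*, *Lcn2* and *Cebpb*. *Pim1* had a log2 fold change of −0.82 (SE 0.303), or −0.42 without DSS-1. *Junb* ranged from 112 to 154 CPM in DSS mice and from 65.6 to 119 CPM in the ceAF group, and its log2 fold change was −0.46 (SE 0.167). *Saa2* was low, at 0.718 to 1.98 CPM in the DSS group and 0.548 to 0.990 CPM in the ceAF group, and its log2 fold change was −0.76 (SE 0.330). The largest change upward in the list was that of *Reg3b*, which encodes an antimicrobial lectin of the epithelium, at 0.82 (SE 1.23). It ranged from 38.3 to 1467 CPM in DSS mice and from 36.8 to 4252 CPM in the ceAF group, and its sign turned without ceAF-1, to −0.60. *Lrg1*, *Saa1* and *Cebpd*, named only after their values were seen, were highest in DSS-5, the mouse with the highest *Socs3*, at 149.8, 2771 and 82.8 CPM. DSS-1 and DSS-5 shared a high *Socs3* level, but *Hp*, *Lcn2* and *Cebpb* were highest in DSS-1 and *Lrg1*, *Saa1* and *Cebpd* in DSS-5. How many targets of the list were highest in each mouse was not counted.

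Of 12 genes of kinases and adaptors that act between receptor and nucleus, 7 were lower and 5 higher, and 0 had p under 0.05 before adjustment in edgeR with TMM scaling. Their median log2 fold change was −0.06, and the lowest was −0.21 for the phosphatase gene *Ptpn11* (SE 0.0961). *Ptpn11* was close to that limit, with an unadjusted p of 0.0518, which was 0.0356 with upper quartile scaling, 0.0455 with DESeq2, 0.0494 with limma-voom, and 0.0404 and 0.0398 with limma-trend on FPKM with pseudocounts of 1 and 0.1. It was 0.126 with the replicate number as a block and between 0.0574 and 0.139 when each mouse was left out, and the exact permutation p was 0.0159. Of 9 negative regulators and sheddases, 7 were lower and 2 higher, 0 had p under 0.05 before adjustment in edgeR with TMM scaling, and the median was −0.13. *Socs1*, an inhibitor of JAK kinases related to *Socs3*, had the lowest log2 fold change of that list at −0.77 (SE 0.406), and *Socs2*, an inhibitor of growth hormone signaling, the highest at 0.11 (SE 0.353). For *Socs1* the unadjusted p was 0.0852, but 0.0429 with limma-voom, 0.0313 and 0.0350 with limma-trend on FPKM with pseudocounts of 1 and 0.1, and 0.0195 without ceAF-1, where the log2 fold change was −1.07. It was 0.136 with the replicate number as a block and up to 0.232 when another mouse was left out, without DSS-4, where the log2 fold change was −0.52. None of the genes on either list was called by DESeq2 among those named here.

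Myeloid markers moved with the genes that were high in DSS-1. Of 9 neutrophil markers, 5 had enough counts, *S100a8*, *S100a9*, *Cxcr2*, *Csf3r* and *Retnlg*. Each of them was lower with ceAF at p under 0.05 before adjustment, beside 3.67% of all genes tested. Their median log2 fold change was −3.98. The summed level of the 9 markers was 1641, 14.1, 180.9, 17.1 and 68.9 CPM in the 5 DSS mice and 1.68, 12.6, 12.7, 40.1 and 18.9 CPM in the 5 ceAF mice. DSS-1 and DSS-3, the highest mice for these markers, were also the highest mice for *Osm*, *Hp* and *Lcn2*, and ceAF-1 was the lowest mouse for all 3 of these genes and for the markers. DSS-5, with the highest *Socs3*, had a neutrophil marker sum below that of DSS-3, whose *Socs3* level was among the lower DSS values. The most abundant marker by FPKM was *S100a9*, at 697 CPM in DSS-1 and at most 84.6 CPM in any other mouse, while *Mpo*, a marker of neutrophil precursors, had at most 2 counts in any mouse.

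**Figure D3:**
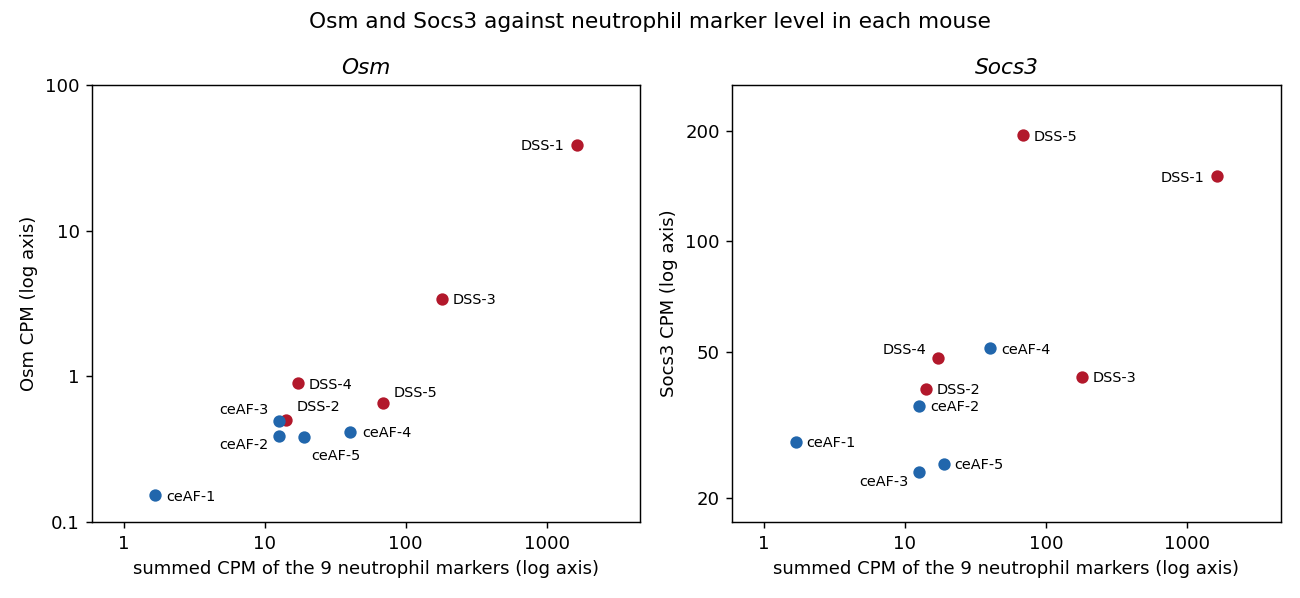
*Osm* (left) and *Socs3* (right) in CPM against the summed CPM of the 9 neutrophil markers, both on log axes, with 1 point per mouse, the DSS group in red and the ceAF group in blue. *Osm* and the marker sum are both highest in DSS-1 (38.8 and 1641 CPM) and both lowest in ceAF-1 (0.153 and 1.68 CPM), whereas *Socs3* is highest in DSS-5, whose marker sum is 68.9 CPM.

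All 10 monocyte and macrophage markers were lower with ceAF, and the median log2 fold change was −0.60. Before adjustment 4 had p under 0.05, beside 3.67% of all genes tested that were lower by that rule. The 4 were *Adgre1*, *Itgam*, *Ccr2* and *C1qa*, named after their values were seen. The sum of the 10 markers was 759 CPM in DSS-1, between 259 and 327 CPM in the other DSS mice, 104 CPM in ceAF-1 and between 209.9 and 302 CPM in the other ceAF mice. Their most abundant gene by FPKM, *Lyz2*, was at 242 CPM in DSS-1. All 9 fibroblast markers were lower, with p under 0.05 before adjustment for 1, *Pdpn*, also named after its value was seen. The sum of the 9 markers was 1155 CPM in DSS-1, between 516 and 559 CPM in the other DSS mice, 186 CPM in ceAF-1 and between 483 and 866 CPM in the other ceAF mice. Their most abundant gene was *Col3a1*, a collagen gene, at 367 CPM in DSS-1. DSS-1 thus had the highest and ceAF-1 the lowest sum of myeloid and of fibroblast markers, as for *Osm*, *Hp* and *Lcn2*. This pattern was not particular to them, since B cell markers had the same highest and lowest mouse, at 220 and 8.09 CPM. The endothelial marker sum was also lowest in ceAF-1, at 32.8 CPM, and was 131 CPM in DSS-1 beside 133 CPM in ceAF-4. The part of these cell types in the levels of the family genes was not tested.

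In the other cell type lists 0 genes had p under 0.05 before adjustment in edgeR. The median log2 fold change of B cell markers was −0.695, with 7 of 7 lower, and their sum was 220 CPM in DSS-1 against at most 109 CPM in any other mouse, with *Cd79a* as their most abundant gene. Endothelial markers were lower in 7 of 7 and smooth muscle markers in 6 of 6, with medians of −0.22 and −0.19 and with *Pecam1* and *Actg2* as the most abundant genes. Epithelial markers, led by *Car1*, were lower in 6 of 13 with a median of 0.07. Mast cell markers, led by *Kit*, were lower in 2 of 3 tested, the only tested mesothelial marker, *Msln*, was lower with a log2 fold change of −0.58, and adipocyte markers, led by *Cidec*, were lower in 1 of 3 tested.

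Genes that mark position along the colon differed from mouse to mouse in both groups. Of 9 such *Hox* genes, 8 were tested, 2 lower and 6 higher after ceAF, and *Hoxd13*, named after its value was seen, was higher with p under 0.05 before adjustment. *Hoxb13*, expressed in distal colon and the most abundant of them by FPKM, was at 76.3, 95.2, 93.0, 112 and 206 CPM in the 5 DSS mice and at 6.18, 215, 149.2, 10.2 and 185 CPM in the 5 ceAF mice. *Hoxb6*, named only after its values were seen, was at 1.27 CPM in DSS-1 and 0.960 CPM in DSS-5, against 22.4 to 36.6 CPM in the other DSS mice, and at 91.0, 0.846, 17.4, 2.98 and 0.880 CPM in the 5 ceAF mice. The 2 DSS mice with high *Socs3* and *Il6st* were the 2 DSS mice with low *Hoxb6*. For *Hoxb13* these 2 mice were at opposite ends of the DSS group, DSS-1 lowest at 76.3 CPM and DSS-5 highest at 206 CPM. In the ceAF group *Hoxb6* was low in ceAF-2, ceAF-4 and ceAF-5, where *Socs3* was at 35.6, 51.2 and 24.8 CPM. *Il6st* was at 58.2, 62.7 and 54.5 CPM in these mice. In ceAF-1 and ceAF-3, where *Hoxb6* was higher, *Socs3* was at 28.5 and 23.6 CPM and *Il6st* at 36.6 and 53.6 CPM. The part of the sampled stretch of colon in these levels was not tested.

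The share of counts on mitochondrial genes was 5.06% to 6.54% in the DSS group and 9.66%, 5.64%, 4.53%, 7.24% and 9.74% in the 5 ceAF mice. ceAF-1, the lowest mouse for *Osm*, *Il6*, *Lif*, *Osmr* and *Il6st*, and ceAF-5, the lowest for *Il11* and *Stat3*, had the highest shares. *Socs3* had a log2 fold change of −1.49 without ceAF-1 and −1.45 without ceAF-5, and that of *Il6st* was −0.42 and −0.54.

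The sequences just before the gene starts were looked up for the 10 family genes. RefSeq promoters of GRCm38.p6 were found for 9 of the 10 genes, 11 promoters in all, and *Osm* was not among them. The 250 bases before each start were searched for the STAT motif TTCNNNGAA, for its stricter form TTCCNGGAA, which TTCNNNGAA includes, and for the AP-1 motif TGANTCA. Each motif reads the same on both strands. TTCNNNGAA was found in *Socs3* alone of these genes, 1 match that begins 154 bases before the start, against 7.02% of 32851 promoters. TTCCNGGAA was found in 0 of the 11 promoters, against 0.913% of all. TGANTCA was found in *Il6*, in *Lif* and in 1 of the 2 promoters of *Il11*, beginning 249, 228 and 98 bases before the start, against 6.75% of all. A match describes letters in the window and does not show binding.

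The promoters of *Socs3*, which had the largest change among the tested genes, and of *Il6* and *Il11*, which were highest in the same mouse, are shown 5′ to 3′ with matches to TTCNNNGAA or TGANTCA in capitals. They lie at chr11:117969367-117969616 on the minus strand, at chr5:30012864-30013113 on the plus strand and at chr7:4778142-4778391 on the minus strand of GRCm38.p6.
*Socs3*: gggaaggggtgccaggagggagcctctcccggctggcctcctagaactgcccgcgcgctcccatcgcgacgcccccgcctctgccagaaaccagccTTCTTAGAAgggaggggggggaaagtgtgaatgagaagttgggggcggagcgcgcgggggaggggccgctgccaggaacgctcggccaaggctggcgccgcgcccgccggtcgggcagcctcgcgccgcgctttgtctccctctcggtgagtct
*Il6*: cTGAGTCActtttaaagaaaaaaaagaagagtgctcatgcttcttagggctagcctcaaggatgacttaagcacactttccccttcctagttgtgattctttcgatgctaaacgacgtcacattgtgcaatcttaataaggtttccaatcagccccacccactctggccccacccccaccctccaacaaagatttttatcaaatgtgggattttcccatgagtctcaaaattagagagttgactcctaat
*Il11*: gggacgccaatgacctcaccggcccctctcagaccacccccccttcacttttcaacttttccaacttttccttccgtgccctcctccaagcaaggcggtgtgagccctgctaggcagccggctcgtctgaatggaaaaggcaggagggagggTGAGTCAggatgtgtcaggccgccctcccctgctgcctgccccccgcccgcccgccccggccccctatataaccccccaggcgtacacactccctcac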

How the data were processed

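Poly(A) RNA of colon was sequenced from 5 mice per group, and groups and numbers were taken from the sample labels. Per the labels, the submitters' processing notes name cutadapt 1.9.1 and HISAT2 2.2.1, and the counting program, its use of strand and the genome build are not given in the sources used here. The authors deposited raw counts of reads per gene and, beside them, FPKM values, which are the same counts divided by exonic length, also deposited by the authors, and by the library total. Genes were kept by filterByExpr (minimum count 10) in edgeR 4.0.16 with R 4.3.3. Libraries were scaled by TMM, and groups were compared by the two-sided quasi-likelihood test, and p-values were adjusted by Benjamini-Hochberg over all genes that passed. The test was also run on simulated data before use, but the outcome is not reported here and no result rests on it. Exact permutation tests compared mean log2 CPM (prior count 1). Correlations used 100000 permutations in scipy 1.17.1.

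The family genes and the lists were chosen with earlier results of these data known, so counts and medians of a list are descriptions. The lists were other ligands, other receptors, kinases and adaptors, negative regulators and sheddases, STAT3 targets, 11 lists of cell type markers and 1 of colon position genes. Genes named were the 10 family genes, genes of the 5 related lists with an unadjusted p-value under 0.05 or the largest or smallest log2 fold change, the most abundant gene of each marker list and the 5 genes most similar to *Il11*, *Lif* and *Socs3*. The values of some genes under this rule are not reported here. Further named genes are marked as chosen after their values were seen, or appear as the genes behind a count of a list, as genes not tested or as overlapping genes. Alternatives were upper quartile scaling, DESeq2 1.42.0, limma-voom and limma-trend (limma 3.58.1) on FPKM with pseudocounts of 1 and 0.1, other filters, the replicate number as a block and leaving out each mouse. That libraries came from separate mice rests on the labels. Intervals from fits cover the spread between these mice, and limits from a count of 0 cover counting error alone.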

Additional observations from a re-analysis of the deposited data

Results flagged for a closer look

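For 46 measures within a group of 5 mice, the distance of the extreme mouse from its nearest neighbour was taken as a ratio to the group's range. In 9 of them 1 mouse stood far from the others, where chance gives about 1 in 20, or 2.3. In the DSS group, DSS-1 stood apart in the log2 summed CPM of monocyte and macrophage markers (ratio 0.785), of fibroblast markers (0.901) and of B cell markers (0.864), in each case above the others. DSS-5 stood below the others in the log2 summed CPM of T cell markers (0.848) and of mast cell markers (0.712). DSS-2 had the highest total count, 19901549 (0.908), and DSS-4 the highest share of mitochondrial counts, 6.54% (0.737). In the ceAF group, ceAF-1 stood below the others in log2 CPM of *Osm* (0.772), where it had 2 counts, and above them in the log2 summed CPM of adipocyte markers (0.719).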

How the results depend on the processing

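Of 425 values of single genes under the alternatives, 407 kept their direction and were not seen to cross the adjusted threshold. Another 17 changed sign and 1, *Il27ra* with DESeq2 (−1.25), passed the threshold. The 407 include *Il6* and *Osm* with DESeq2, which gave no p-value for them, so that only their direction was compared. The number of DEGs over all genes was 26 with DESeq2, 0 to 3 when each mouse was left out, the 3 without DSS-5, and 0 otherwise. The number of family genes lower at an unadjusted p-value under 0.05 was 1 with limma-trend on FPKM with a pseudocount of 1 or of 0.1, and 1 to 4 when each mouse was left out (1 without DSS-1 or DSS-5, 4 without DSS-2). *Osm* passed the filter on low counts without DSS-2 or any 1 ceAF mouse and is 1 of those counted there; of the 8 genes tested in all mice, 3 were lower without DSS-2, 1 without DSS-1, DSS-5 or ceAF-1, and 2 otherwise. With the replicate block, that is the replicate number as a block, 1 family gene was lower by that rule, *Cntfr* was at 0.0182 and *Reg3b* at −0.183. Mice of the same number did not deviate from their group means together (r = −0.249, −0.136, −0.00428, −0.159 and 0.286 for numbers 1 to 5, with only number 5 correlating best with itself), so the numbers are not taken to pair the mice. *Cntfr* was at 0.105 with limma-voom. When each mouse was left out, log2 fold changes ran from −3.28 to 0.592 for *Il6* without a filter, −1.36 to 0.463 for *Il11*, −0.0875 to 0.333 for *Lif*, −0.0492 to 0.328 for *Osmr*, −0.169 to 0.375 for *Ctf1*, −0.388 to 0.384 for *Cntfr*, −0.311 to 0.347 for *Socs2* and −0.596 to 1.31 for *Reg3b*. *Osm* without a filter ran from −4.82 to −1.85, and was −2.47 with limma-voom and −1.12 with limma-trend on FPKM with a pseudocount of 1. The cause of these changes was not tested, apart from the pseudocount, which moves the log2 fold change of a gene near 0 FPKM toward 0 by construction. Depth limits *Il6* and *Osm* most, since most mice had 14 counts or fewer of either gene.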
